A study of Mus musculus with 8 samples.

Results

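Kupffer cells are the resident macrophages of the liver sinusoids, and 9 genes that are widely used to recognise them or that belong to their identity were followed across single liver cells of 8 mice. The genes are Clec4f, Vsig4, Timd4, Folr2, Cd5l, Fcna, Id3, Adgre1 and Siglec1. They were taken by symbol from the 55450 genes of the table, each symbol matched a single row, and all 9 had UMIs among the 34289 genes with at least 1 UMI in a kept cell. All mice were wild-type C57BL/6. Control mice (n = 2) received a normal diet and drinking water, HFD+F+CCl4 mice (n = 3) a high-fat diet, fructose solution and intraperitoneal carbon tetrachloride (CCl4), and WD+F+CCl4 mice (n = 3) a western diet with the same fructose solution and CCl4 injections. The 6 treated mice are called NASH mice here, after the non-alcoholic steatohepatitis with fibrosis that the regimens were designed to produce. Because both regimens contain fructose and CCl4, diet and toxin cannot be told apart in a comparison with control mice. Livers were perfused, digested with collagenase IV, papain and DNase I, treated for red cell lysis and dead cell removal, and loaded on the 10x Chromium 3' V3 platform, in which every captured mRNA molecule carries a unique molecular identifier (UMI). The steps of digestion and bead removal affect which cells enter a library, so numbers of cells of a type describe the suspension. Loss in these steps and a low number in the liver cannot be told apart here.

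The 8 libraries held between 6135827 and 64855024 UMIs, the lowest total being that of control replicate 2. A kept cell had over 500 detected genes and less than 25% of its UMIs from mitochondrial genes, which left 80474 cells, 4168 of them in control replicate 2 and 9846 to 11999 in each of the other mice. The kept cells had a median of 992.5 UMIs in control replicate 2, 2397 in control replicate 1 and 3159 to 4278 in the NASH mice. Between 1.69% and 2.40% of the kept cells of a mouse carried a barcode sequence that also occurred in another library. Levels are given as CPM, counts per 1000000 UMIs summed over the cells of a class in 1 mouse. Groups were compared with edgeR on those sums, and a gene was called where its p-value, adjusted over all genes tested, was under 0.05. Levels of different genes are not ranked against each other.

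Kupffer cells stand at the blood-facing wall of the sinusoid, where they clear microbes, ageing red cells and complement-coated particles. They descend from embryonic precursors and renew themselves, and when they are lost, circulating monocytes can enter the vacated place and take on the same gene program under signals from endothelial and stellate cells, among them Notch ligands and members of the TGF-beta and BMP family. The 9 genes cover several parts of that program. Clec4f encodes a C-type lectin that binds galactose-bearing glycans, Vsig4 encodes a complement receptor for C3b and iC3b, Timd4 encodes a phosphatidylserine receptor for apoptotic cells, and Folr2 encodes a folate receptor. Cd5l and Fcna encode secreted proteins, the scavenger-receptor protein AIM and the lectin ficolin A. Id3 encodes an inhibitor of basic helix-loop-helix factors that is needed for Kupffer cell development. Adgre1 encodes F4/80, the general macrophage antigen of the mouse, and Siglec1 encodes CD169, a sialic acid receptor that is interferon-inducible.

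The genes lie apart in the genome. On GRCm38 the annotation places Clec4f at chr6:83644542-83656187 on the minus strand, Vsig4 at chrX:96247203-96293438 on the minus strand, Timd4 at chr11:46810800-46844332 on the plus strand, Folr2 at chr7:101839988-101857194 on the minus strand and Cd5l at chr3:87357881-87371073 on the plus strand. Fcna lies at chr2:25624666-25628030 on the minus strand, Id3 at chr4:136143497-136145755 on the plus strand, Adgre1 at chr17:57358691-57483527 on the plus strand and Siglec1 at chr2:131069220-131086765 on the minus strand. All 9 are protein-coding. Fcna shares exon sequence with the antisense gene Fcnaos, which had 19 UMIs against 6678 for Fcna, and Folr2 with the antisense gene Gm10602, which had 571 against 14181 for Folr2. The other 7 overlap no annotated gene.

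The upstream sequences of 5 of the genes are shown, those among the 6 with a wide gap between Kupffer-like and macrophage-like cells below that had upstream bases outside annotated genes. Fcna had none. They come from the RefSeq promoter table for GRCm38.p6, 5′ to 3′ on the strand of the gene, cut to the bases before the start of the gene and outside annotated genes, and capitals mark letters that matched a searched motif on either strand.
Clec4f, chr6:83656188-83656366, minus strand: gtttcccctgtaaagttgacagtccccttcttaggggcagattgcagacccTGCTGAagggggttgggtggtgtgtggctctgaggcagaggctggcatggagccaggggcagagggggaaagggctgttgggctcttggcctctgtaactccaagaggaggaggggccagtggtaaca
Cd5l, chr3:87357631-87357880, plus strand: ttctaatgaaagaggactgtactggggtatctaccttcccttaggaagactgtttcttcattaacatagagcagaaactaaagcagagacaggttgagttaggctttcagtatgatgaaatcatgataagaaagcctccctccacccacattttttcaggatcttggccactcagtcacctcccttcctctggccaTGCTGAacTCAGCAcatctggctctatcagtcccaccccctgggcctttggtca
Timd4, chr11:46810549-46810798, plus strand: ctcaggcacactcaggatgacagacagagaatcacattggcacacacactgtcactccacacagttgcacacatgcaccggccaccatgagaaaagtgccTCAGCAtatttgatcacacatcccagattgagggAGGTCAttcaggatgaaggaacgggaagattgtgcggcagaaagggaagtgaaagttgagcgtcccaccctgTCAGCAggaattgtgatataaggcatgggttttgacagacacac
Folr2, chr7:101857195-101857440, minus strand: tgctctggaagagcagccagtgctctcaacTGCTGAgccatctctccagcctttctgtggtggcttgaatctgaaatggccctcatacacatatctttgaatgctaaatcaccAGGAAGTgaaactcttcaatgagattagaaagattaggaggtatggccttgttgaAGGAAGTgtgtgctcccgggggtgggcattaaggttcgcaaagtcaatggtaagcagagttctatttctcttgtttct
Vsig4, chrX:96293439-96293688, minus strand: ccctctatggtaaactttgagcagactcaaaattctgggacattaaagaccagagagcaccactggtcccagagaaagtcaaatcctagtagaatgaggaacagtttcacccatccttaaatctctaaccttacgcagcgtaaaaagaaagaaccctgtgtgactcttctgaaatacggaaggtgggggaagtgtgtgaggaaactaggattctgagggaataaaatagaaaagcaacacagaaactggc

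Searched over the whole promoter window on both strands, the letters TGCTGA, part of the recognition element of MAF factors, occurred in 5 of the 7 member genes with a promoter entry, namely Cd5l, Clec4f, Fcna, Folr2 and Timd4, and in 16.1% of all 32851 promoters of the table. The letters AGGAAGT, bound by the macrophage factor SPI1, occurred in Fcna and Folr2 and in 7.69% of all promoters. TGGGAA, recognised by RBPJ, the factor downstream of Notch, occurred in Clec4f and Fcna and in 21.6% of all promoters. AGGTCA, recognised by nuclear receptors, occurred in Clec4f and Timd4 and in 14.0%. GGCGCC, bound by SMAD factors, and the E-box CAGCTG occurred in none of the 7, against 9.59% and 13% of all promoters. These are letters in a window and not measured sites.

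Cell classes were built without the 9 genes. The cells were clustered with the 9 genes left out, and clusters were named from marker lists that hold none of them. The cluster called Kupffer-like had 700 cells and carried all 12 of the other Kupffer markers on its list, with Clec4f, Marco, Vsig4, Cd5l, Fcna, C6, Kcna2, Cxcl13, Timd4 and Folr2 as the genes that stood out most by fold. The scavenger receptor gene Marco reached 3489 CPM ± 2828 (SD, n = 3 mice) in these cells, the iron exporter gene Slc40a1 2540 and C6, a complement gene, 425, while Ccr2 and Spp1, genes of recruited macrophages, were at 36.8 and 73.3 CPM against 624 and 1551 CPM in macrophage-like cells. The whole list of 10 genes of recruited macrophages still summed to 3594 to 4079 CPM in Kupffer-like cells of HFD+F+CCl4 mice and 4399 CPM in those of the WD+F+CCl4 mouse. The mean marker score of the cluster was 3.11 on the Kupffer list and 1.84 on the macrophage list, where the macrophage-like cluster scored 1.82. The label was thus met by its Kupffer markers, and macrophage markers were as high in it as in macrophage-like cells. Clusters are made from the same cells, so every contrast between classes is a description and was not tested. The second class of interest, called macrophage-like, had C1q, Gpnmb and Trem2 among its leading genes, and the third, monocyte-like, had Vcan, Chil3, F13a1 and Plac8 in its largest cluster. The monocyte-like class also held a cluster of 3715 cells led by the stress genes Hspa1b, Hspa1a and Fosb. It had 0 monocyte markers among its 10 leading genes and scored 0.83 on the monocyte and 0.46 on the Kupffer list. In the finer clustering and in the clustering with the members, a cluster with these leading genes stayed unnamed. A pair of clusters of 2051 and 1890 cells, with hepatocyte genes such as Mup11 and Mug1 in front and B cell and hepatocyte markers together, stayed unnamed. They held 17.6% and 49.0% of the kept cells of control replicates 1 and 2 and at most 2 cells of any NASH mouse.

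Kupffer-like cells were unevenly spread over the mice. Control mice had 1 and 0 of them, HFD+F+CCl4 mice 222, 103 and 13, and WD+F+CCl4 mice 3, 4 and 354, in replicate order here and throughout. The count of 0 among 4168 cells allows a share of up to 0.072%. Levels in the class are therefore given for the 3 mice with at least 20 such cells, HFD+F+CCl4 replicates 1 and 2 and WD+F+CCl4 replicate 3, in which the cells had medians of 5153, 8328 and 11482 UMIs. The single Kupffer-like cell of control replicate 1 held 9 UMIs of Clec4f and 18 of Cd5l among 2332. The 18 macrophage-like cells of that mouse were at 823 CPM of Clec4f, 437 of Vsig4 and 566 of Cd5l. Macrophage-like cells of NASH mice were at 2.55 to 31.7 CPM of Clec4f. The counts are thus of 1 cluster, and control cells with these genes also lay outside it.

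Compared with macrophage-like cells, the surface receptors of uptake were the most restricted genes together with the secreted proteins. Clec4f was at 1549, 2867 and 2431 CPM in Kupffer-like cells, and at 28.7, 24.2 and 31.7 CPM in the macrophage-like cells of the same mice, so that the level was 54.1 to 119 times higher in Kupffer-like cells. Vsig4 was at 1740, 1950 and 2243 CPM, 19.6 to 62.1 times its macrophage-like level. Timd4 was at 144, 69.5 and 290 CPM, 46.9 to 306 times the macrophage-like level, but that level rested on few UMIs. Relative to its level, Timd4 also differed more between the 3 mice than any of the other 8 genes did. In HFD+F+CCl4 replicate 3, conventional dendritic-like cells held 74% of the 50 Timd4 UMIs and 26.7% of all kept UMIs. In the 3 mice they held 5.37%, 19.1% and 0.39% of the Timd4 UMIs and 8.31%, 14.0% and 4.07% of all kept UMIs. Folr2 was at 648, 1033 and 909 CPM, 9.14 to 17.6 times its macrophage-like level. For all 4 receptors the Kupffer-like range lay above that of every other class, over the mice with at least 20 cells.

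The secreted proteins followed the same order. Cd5l was at 6389, 6887 and 8387 CPM in Kupffer-like cells and at 470, 203 and 564 CPM in macrophage-like cells, a ratio of 13.6 to 33.9. Fcna was at 397, 527 and 753 CPM, 32.8 to 79.5 times its macrophage-like level. Fcna had a clear other source, because stellate-like cells held 105 CPM in HFD+F+CCl4 replicate 1 (158 cells) and 333 CPM in HFD+F+CCl4 replicate 2 (39 cells), more than any other class except Kupffer-like cells. In control replicate 1, 17 stellate-like cells held 633 CPM (95% Poisson interval, counting error only, 460 to 849) and 48.9% of the 90 Fcna UMIs of that library.

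**Figure D1:**
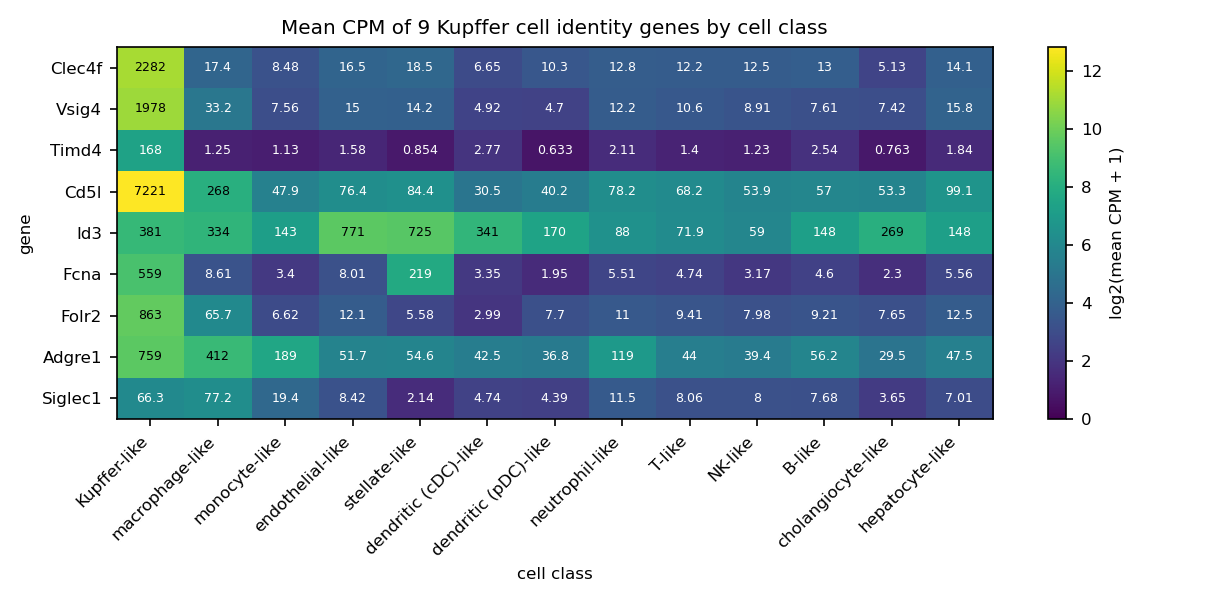
Mean CPM of the 9 genes (rows) in 13 cell classes (columns) on a logarithmic colour scale, as the mean over mice with at least 20 cells of the class. Clec4f, Vsig4, Timd4, Cd5l and Folr2 are highest in Kupffer-like cells with a wide gap. Fcna is highest there at 559 CPM, followed by stellate-like cells at 219 CPM. Id3 is highest in endothelial-like cells at 771 CPM, and Siglec1 is about equal in Kupffer-like and macrophage-like cells at 66.3 and 77.2 CPM. The stellate-like mean is of 2 mice.

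The remaining 3 genes did not separate Kupffer-like from macrophage-like cells to that degree. Adgre1 was at 763, 703 and 811 CPM in Kupffer-like cells, 1.49 to 1.75 times the level in macrophage-like cells of the same mouse, and the ranges of the 2 classes did not overlap. Siglec1 was at 55.3, 71.7 and 71.9 CPM, 1.05 to 1.07 times the macrophage-like level, and over all mice the macrophage-like class had the higher mean (77.2 CPM ± 43.4, n = 6, against 66.3 ± 9.53, n = 3) with overlapping ranges. Id3 was at 432, 420 and 291 CPM, 0.863 to 1.12 times the macrophage-like level. The order of Id3 levels was led by endothelial-like cells (771 CPM ± 240, n = 7), which overlapped with stellate-like cells (725 ± 235, n = 2), and both lay above Kupffer-like (381 ± 78.3, n = 3), conventional dendritic-like (341 ± 105, n = 8) and macrophage-like cells (334 ± 68.5, n = 6), 3 classes whose ranges overlapped.

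**Figure D2:**
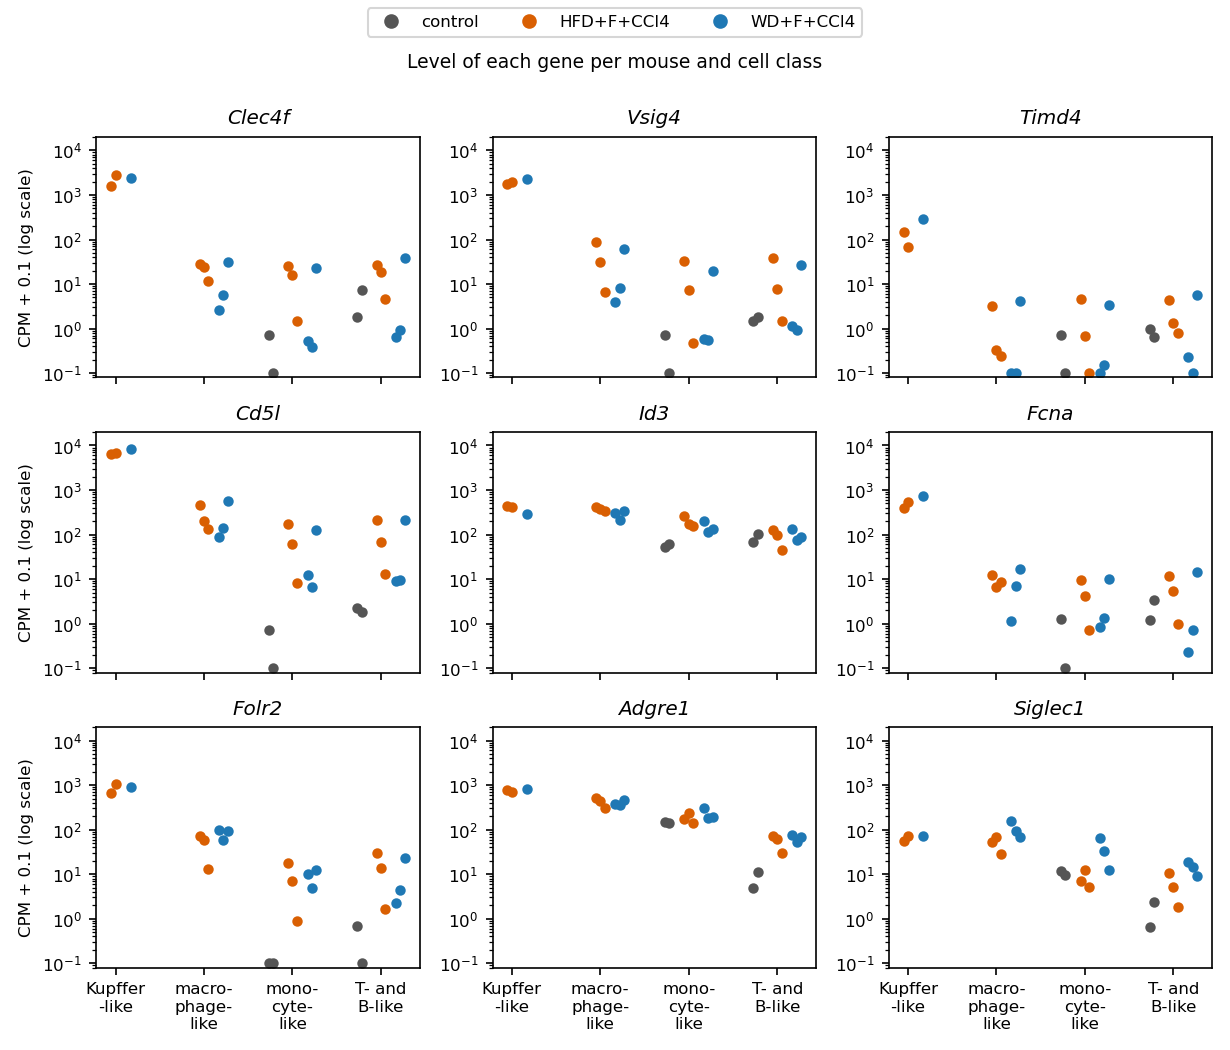
CPM + 0.1 (logarithmic y axis) of each of the 9 genes in every mouse, with 1 panel per gene, the classes Kupffer-like, macrophage-like, monocyte-like and pooled T- and B-like on the x axis and the group given by colour. In the panel of Clec4f the Kupffer-like points lie at 1549 to 2867 CPM and the other 3 classes at 38.9 CPM or lower, whereas in those of Id3 and Siglec1 the Kupffer-like and macrophage-like points lie together.

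Cell by cell, the genes were found together in Kupffer-like cells. To compare cells of different depth, each was thinned to 1000 UMIs. A Kupffer-like cell then held UMIs of a median of 3.5, 5 and 5 of the 9 genes in the 3 mice, and a macrophage-like cell of 0 or 1 in each of 6 NASH mice. At least 2 of the 4 genes Clec4f, Vsig4, Fcna and Timd4 were present in 49.1% of the Kupffer-like cells of HFD+F+CCl4 replicate 1 (exact 95% interval, 42.3% to 55.9%), in 76.7% of those of HFD+F+CCl4 replicate 2 (67.3% to 84.5%) and in 75.1% of those of WD+F+CCl4 replicate 3 (70.3% to 79.6%). The share was 0% to 1.81% of macrophage-like cells and 0% to 0.507% of T-like cells. These intervals cover counting error only.

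Detection at a common depth of 500 UMIs kept the same picture. Cd5l was found in 85.6% to 94.2% of Kupffer-like cells per mouse against 0% to 9.62% of T-like cells, a type that does not express it. Clec4f was found in 39.2% to 62.1% against at most 2.04% of T-like cells, and in 68.9% to 93.2% before thinning. Adgre1 was found in 25.2% to 33.8% of Kupffer-like cells, in 12.8% to 20.5% of macrophage-like cells and in 0.154% to 3.04% of T-like cells. Siglec1 was found in 1.80% to 4.85% of Kupffer-like cells and 2.30% to 6.78% of macrophage-like cells.

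Timd4, the gene that is commonly used to tell long-resident from recently formed Kupffer cells, was detected in 33.8%, 16.5% and 59.9% of the Kupffer-like cells of the 3 mice, whose depths differ. After thinning to 1000 UMIs, 28 of 222 cells held a Timd4 UMI in HFD+F+CCl4 replicate 1, 6 of 103 in HFD+F+CCl4 replicate 2 and 69 of 350 in WD+F+CCl4 replicate 3. Fcna was higher in the cells with a Timd4 UMI than in those without in each of the 3 mice, at 679 against 356 CPM, 1000 against 577 and 1159 against 591. Clec4f and Folr2 had no common direction, since Clec4f was at 2464 against 1448, 3167 against 3062 and 2507 against 2573 CPM. The 6 cells of HFD+F+CCl4 replicate 2 make its values imprecise, and no test was made over cells.

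Outside the macrophage classes, the genes with the strongest restriction were also found at low levels in other classes, and these levels were measured in T- and B-like cells, which do not make them. Cd5l in these lymphocytes was at 212, 67.3 and 215 CPM in the 3 mice with at least 20 Kupffer-like cells, whereas it was at 13.1, 9.09 and 9.56 CPM in the other NASH mice and at 2.12 and 1.69 CPM in control mice. Clec4f in T- and B-like cells was at 26.3, 18.2 and 38.9 CPM in those 3 mice, at 4.62, 0.535 and 0.813 CPM in the other NASH mice and at 1.73 and 7.33 CPM in control mice. Kupffer-like cells contributed 2.91%, 1.81% and 7.06% of the kept UMIs in the 3 mice and 0% to 0.203% in the other 5.

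**Figure D3:**
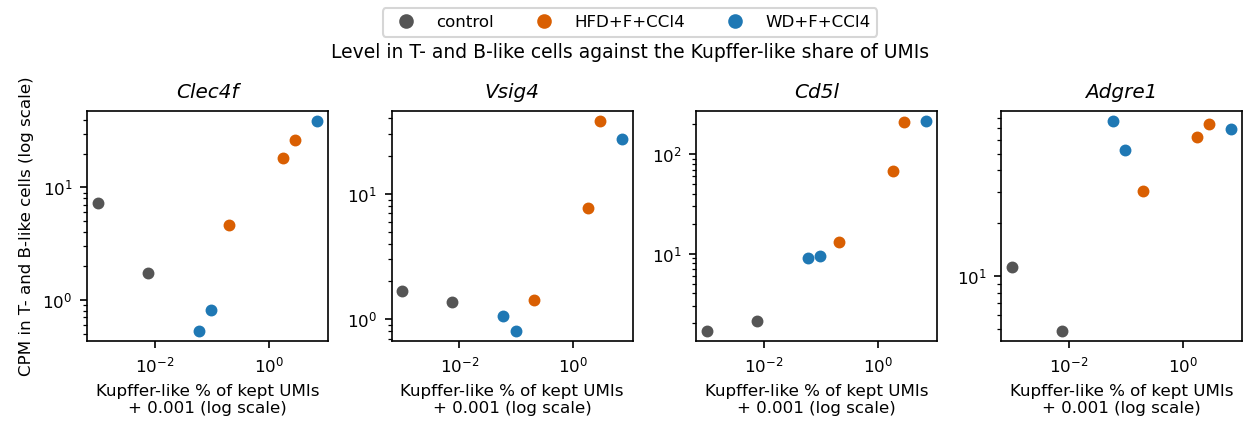
Level of Clec4f, Vsig4, Cd5l and Adgre1 in pooled T- and B-like cells (CPM, logarithmic y axis) against the percentage of kept UMIs that came from Kupffer-like cells (logarithmic x axis), with 1 point per mouse. For Cd5l the 3 mice with 1.81% or more lie at 67.3 CPM or higher and the other 5 at 13.1 CPM or lower, while for Adgre1 the NASH mice lie at 30.5 to 76.6 CPM irrespective of the x axis.

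Monocyte-like cells were at this lymphocyte level or under it in most mice for the restricted genes. The ratio of monocyte-like to T- and B-like level was above 1 in 0 of 8 mice for Clec4f and Vsig4, in 1 of 8 for Cd5l and in 1 of 7 for Timd4. For Fcna it was above 1 in 3 of 8 mice, at up to 5.61, and for Folr2 in 2 of 7, at up to 4.79. The 5.61 was that of WD+F+CCl4 replicate 1, where T-like cells held 2.04% and B-like cells 0% of 49 Fcna UMIs, so it has little weight. The 25.8 CPM of Clec4f in the monocyte-like cells of HFD+F+CCl4 replicate 1 and the 23.1 CPM in WD+F+CCl4 replicate 3 did not exceed the lymphocyte level. Adgre1 was above it in 8 of 8 mice, by 2.38 to 30.004 times, Siglec1 in 7 of 8 and Id3 in 6 of 8. Macrophage-like cells exceeded it in 6 of 6 mice for Vsig4, Cd5l, Fcna, Folr2, Id3, Adgre1 and Siglec1, with ratios for Cd5l between 2.22 and 15.0 and for Folr2 between 2.36 and 45.7. For Fcna the ratio was only 1.04, 1.26 and 1.14 in the 3 mice with at least 20 Kupffer-like cells, and 7.64 to 11.2 in the other NASH mice. For Clec4f the macrophage-like ratio was 0.815 to 6.76 and for Timd4 it was under 1 in all 5 mice in which it could be formed.

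The comparison of the whole suspension asks what part of the summed UMIs of all kept cells each gene held in NASH and control mice. It does not measure RNA in the liver. In such sums, fewer cells of a type and less RNA per cell cannot be told apart. Kupffer-, macrophage- and monocyte-like cells together were 407 of 10788 and 190 of 4168 kept cells in control mice. In NASH mice they were 5058 to 6764 of 9846 to 11999 kept cells. The part of these cell numbers in the values below was not tested. Adgre1 was at 14.9 and 20.2 CPM in control mice, 289, 238 and 108 CPM in HFD+F+CCl4 mice and 219, 159 and 276 CPM in WD+F+CCl4 mice. Every NASH mouse lay above both controls, with a log2 fold change of 3.70 (SE 0.42, adjusted p = 0.00208) in HFD+F+CCl4 mice and of 3.84 (SE 0.42, adjusted p = 0.00155) in WD+F+CCl4 mice. Siglec1 was at 1.12 and 1.89 CPM in control mice, 25.4, 30.3 and 6.71 CPM in HFD+F+CCl4 mice and 54.8, 34.1 and 33.5 CPM in WD+F+CCl4 mice, again without overlap. Its log2 fold change was 3.98 (SE 0.69, adjusted p = 0.00900) and 5.06 (SE 0.72, adjusted p = 0.00369), and the first of these was 3.69 with an adjusted p of 0.0753 without control replicate 1. Both models were compared with the same 2 control mice. Without the Kupffer-like cells or without the unnamed clusters, settings chosen after seeing the data, Adgre1 and Siglec1 were called in both models as well.

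Id3 was at 105 and 159 CPM in all kept cells of control mice, 411, 302 and 196 CPM in HFD+F+CCl4 mice and 205, 154 and 298 CPM in WD+F+CCl4 mice, so that WD+F+CCl4 replicate 2 lay between the controls. It was called in HFD+F+CCl4 mice (log2 fold change 1.31, SE 0.32, adjusted p = 0.0287) and not in WD+F+CCl4 mice (0.94, SE 0.32, adjusted p = 0.0742). Without control replicate 1, without control replicate 2 or without HFD+F+CCl4 replicate 2 the adjusted p of the first was 0.147, 0.0791 and 0.0725. Folr2 was at 1.0 and 0 CPM in control mice, 58.2, 46.8 and 3.95 CPM in HFD+F+CCl4 mice and 15.9, 14.9 and 109 CPM in WD+F+CCl4 mice. It was called in WD+F+CCl4 mice (adjusted p = 0.0394) and not in HFD+F+CCl4 mice (adjusted p = 0.0520), and the first call was lost without control replicate 1 (adjusted p = 0.126), control replicate 2 (0.156), WD+F+CCl4 replicate 2 (0.0570) or replicate 3 of that model (0.0524).

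Cd5l and Clec4f, which were highest in Kupffer-like cells, differed widely between NASH mice and were not called. Cd5l in all kept cells was at 3.55 and 6.22 CPM in control mice, 479, 237 and 39.7 CPM in HFD+F+CCl4 mice and 25.4, 41.8 and 870 CPM in WD+F+CCl4 mice, and although no NASH mouse overlapped with the controls, its adjusted p was 0.0758 and 0.0618. DESeq2 called it in both models (adjusted p = 0.000591 and 0.000190), as did the fit without a filter on low counts (0.0355 and 0.0251). Clec4f was at 3.66 and 10.4 CPM in control mice, 71.5, 70.0 and 6.84 CPM in HFD+F+CCl4 mice and 0.705, 1.90 and 198 CPM in WD+F+CCl4 mice, so that replicates 1 and 2 of the WD+F+CCl4 group lay under both controls. In all, 3 of 9 genes were called in each comparison with control, all higher, against 18.9% of the 19787 genes tested with HFD+F+CCl4 (9.63% higher, 9.22% lower) and 21.4% with WD+F+CCl4 (11% higher, 10.3% lower). The adjusted p of the genes not called was between 0.0520 and 0.634 in HFD+F+CCl4 mice and between 0.0618 and 0.406 in WD+F+CCl4 mice. The median log2 fold change of the 9 was 3.70 and 3.84, against -0.01 and -0.06 over all genes. Scaling by library size alone moved the median of all genes by -0.104 and -0.183, and the share of called genes that were higher in NASH mice from 51.1% to 41.6% in HFD+F+CCl4 and from 51.7% to 36.7% in WD+F+CCl4 mice.

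Within mononuclear phagocytes, the pooled Kupffer-, macrophage- and monocyte-like cells, the comparison asks whether the genes differed once lymphocytes and parenchymal cells were set aside. Id3 was the only member called in both models. It was at 56.5 and 64.1 CPM in control mice, 369, 316 and 213 CPM in HFD+F+CCl4 mice and 216, 143 and 257 CPM in WD+F+CCl4 mice. Its log2 fold change was 2.36 (SE 0.33, adjusted p = 0.00784) and 1.89 (SE 0.33, adjusted p = 0.0147), and every NASH mouse lay above both controls. These were 1 of 9 genes, against 5.27% and 6.85% of the 15936 genes tested, of which 2.88% and 3.71% were higher and 2.39% and 3.14% lower. Without control replicate 1 the adjusted p rose to 0.113 and 0.145, and without control replicate 2 to 0.0562 and 0.0731.

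Adgre1 in phagocytes was at 151 and 137 CPM in control mice, 419, 391 and 194 CPM in HFD+F+CCl4 mice and 320, 236 and 406 CPM in WD+F+CCl4 mice. No NASH mouse overlapped with the controls, but the difference was not called (log2 fold change 1.23 and 1.24, adjusted p = 0.0836 and 0.0726). Siglec1 was at 12.9 and 9.15 CPM in control mice, 37.9, 50.8 and 12.1 CPM in HFD+F+CCl4 mice and 80.8, 50.4 and 48.3 CPM in WD+F+CCl4 mice, with an adjusted p of 0.276 and 0.0851. The classes within the pool differed between groups, since the 2 control mice had 18 and 4 macrophage-like cells and 388 and 186 monocyte-like cells, while the NASH mice had 811 to 3178 and 2266 to 4590.

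Monocyte-like cells were present in every mouse with at least 186 cells. Id3 was at 51.3 and 61.8 CPM in control mice, 258, 176 and 155 CPM in HFD+F+CCl4 mice and 196, 112 and 134 CPM in WD+F+CCl4 mice. The lowest NASH value lay above the highest control value, with a log2 fold change of 1.77 (SE 0.32, adjusted p = 0.0135) in HFD+F+CCl4 mice and of 1.47 (SE 0.32, adjusted p = 0.0284) in WD+F+CCl4 mice. It was the only member called, against 7.16% and 6.61% of 14025 genes, of which 3.96% and 3.37% were higher and 3.19% and 3.24% lower. Id3 is also expressed by lymphocytes, and its level in T- and B-like cells was 66.8 and 103 CPM in control mice and 44.6 to 136 CPM in NASH mice. The monocyte-like level was 0.767 and 0.599 times the lymphocyte level in control mice and 1.45 to 3.48 times that level in NASH mice. Macrophage markers moved with it in the same cells, since 5 and 8 of the 12 on the list rose in the 2 models and their summed level was 1298 to 1836 CPM in control, 4920 to 12527 in HFD+F+CCl4 and 9392 to 16573 in WD+F+CCl4 mice. T cell markers went the other way, with 5 and 6 of 7 lower and a summed level of 86.8 to 328 CPM in control and 6.96 to 17.8 CPM in NASH mice. Their part in the Id3 difference was not tested.

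The Id3 difference was also seen within the monocyte cluster that held most control cells together with cells of every NASH mouse. Most monocyte-like cells of control mice, 356 and 176, fell in the cluster led by Vcan and Chil3, whereas HFD+F+CCl4 replicate 1 had 2916 of its cells in a cluster led by stress genes. In the cluster led by Vcan and Chil3 alone, Id3 was at 51.3 and 54.7 CPM in control mice, 201, 203 and 153 CPM in HFD+F+CCl4 mice and 206, 117 and 149 CPM in WD+F+CCl4 mice, with log2 fold changes of 1.82 (adjusted p = 0.00934) and 1.60 (adjusted p = 0.00757). The finer clustering set most of these control cells apart. There, 337 and 149 control cells lay in a monocyte cluster with at most 4 cells of any NASH mouse. The finer cluster led by Vcan held 21 and 23 control cells against 249 to 2048 cells of each NASH mouse. Whether like monocytes were compared was not tested. Without control replicate 1 the adjusted p in all monocyte-like cells was 0.175 and 0.236, and without control replicate 2 it was 0.0650 and 0.0959, at log2 fold changes of 1.47 to 1.82. The call was thus lost without either control mouse.

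**Figure D4:**
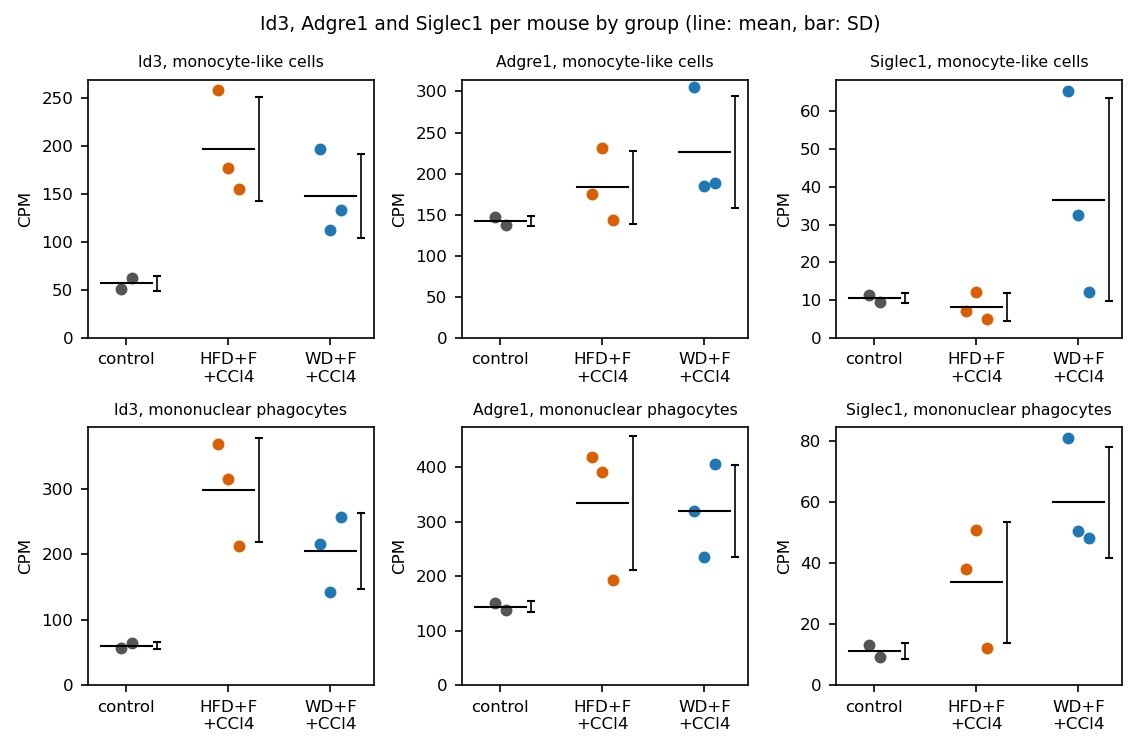
CPM of Id3, Adgre1 and Siglec1 in monocyte-like cells and in mononuclear phagocytes (linear y axis from 0), with 1 point per mouse, a line at the mean of the group and a bar of 1 SD. Id3 in monocyte-like cells lies at 51.3 and 61.8 CPM in control mice and at 112 to 258 CPM in the 6 NASH mice, and Siglec1 is highest in 2 WD+F+CCl4 mice at 65.3 and 32.5 CPM.

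No other member was called in monocyte-like cells. Adgre1 was at 146 and 138 CPM in control mice, 175, 231 and 143 CPM in HFD+F+CCl4 mice and 306, 185 and 188 CPM in WD+F+CCl4 mice (adjusted p = 0.206 for WD+F+CCl4 mice, log2 fold change 0.70, SE 0.31), so that the WD+F+CCl4 mice lay above both controls. Folr2 had 0 UMIs in both control mice, which allows up to 1.81 CPM in control replicate 1 and 14.3 CPM in control replicate 2, and was at 18.0, 6.83 and 0.80 CPM in HFD+F+CCl4 mice and 10.2, 4.82 and 12.2 CPM in WD+F+CCl4 mice. Cd5l was at 0.603 and 0 CPM in control mice and at 6.55 to 169 CPM in NASH mice, but it lay at 0.585 to 1.35 times the lymphocyte level of the same NASH mouse.

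Siglec1 was the member with the smallest unadjusted p between the NASH models. In monocyte-like cells it was at 11.5 and 9.51 CPM in control mice, 6.97, 12.2 and 4.98 CPM in HFD+F+CCl4 mice and 65.3, 32.5 and 12.1 CPM in WD+F+CCl4 mice. WD+F+CCl4 replicates 1 and 2 lay above all other mice, while WD+F+CCl4 replicate 3 lay level with HFD+F+CCl4 replicate 2. The log2 difference of WD+F+CCl4 minus HFD+F+CCl4 mice was 2.33 (SE 0.56), with an unadjusted p of 0.00219 and an adjusted p of 0.185, and so was not called. The adjusted p was between 5.78e-14 and 0.625 over 18 alternatives, of which DESeq2 (0.0107) and the fit without a filter on low counts called it. The mice differed in which monocyte cluster held most cells. WD+F+CCl4 replicates 1 and 2 had 3396 and 2301 of theirs in the cluster led by Vcan and Chil3, HFD+F+CCl4 replicates 2 and 3 had 1621 and 3127 in a cluster led by Cd300e, and the mean of Siglec1 was 24.0 CPM in the first and 4.17 CPM in the second cluster. In the cluster led by Vcan and Chil3 alone Siglec1 was at 12.5, 20.8 and 7.33 CPM in HFD+F+CCl4 mice against 72.2, 39.6 and 17.4 CPM in WD+F+CCl4 mice, a log2 difference of 1.71 (SE 0.49, adjusted p = 0.625), and the ranges overlapped. In macrophage-like cells Siglec1 was at 51.6, 68.0 and 27.9 CPM in HFD+F+CCl4 mice and 154, 93.0 and 68.4 CPM in WD+F+CCl4 mice, a log2 difference of 1.08 (SE 0.35, adjusted p = 0.588). In T- and B-like cells it was at 10.4, 5.07 and 1.78 CPM and at 19.1, 14.6 and 9.12 CPM.

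No member was called between the 2 NASH models in all kept cells, phagocytes, monocyte-like, macrophage-like or endothelial-like cells. The background share was 0% in each, since edgeR called no gene at all. An unadjusted p under 0.05 was found for 767 of 19787, 889 of 15936, 1929 of 14025, 1066 of 13117 and 133 of 10795 genes. DESeq2 called 46, 54, 218, 28 and 1 genes in the same 5 comparisons, with Siglec1 in monocyte-like cells as the only member. In macrophage-like cells, where control mice had too few cells, Id3 was at 419, 376 and 346 CPM in HFD+F+CCl4 mice and 309, 217 and 337 CPM in WD+F+CCl4 mice, Adgre1 at 512, 450 and 304 CPM and at 385, 356 and 464 CPM, and Folr2 at 70.9, 58.9 and 13 CPM and at 97.7, 58.0 and 95.6 CPM. The adjusted p of the 8 members tested there was between 0.588 and 0.992. Without a filter on low counts, Folr2 and Siglec1 were called in macrophage-like cells.

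Kupffer-like cells themselves could not be compared between models as classified, because a single WD+F+CCl4 mouse had at least 20 of them. A finer clustering put 3 mice of the HFD+F+CCl4 and 2 of the WD+F+CCl4 group over that limit, and there edgeR called 0 of the 9 genes and 0 of the 9277 genes tested, 419 of which had an unadjusted p under 0.05. The largest differences of WD+F+CCl4 minus HFD+F+CCl4 mice were 1.29 for Timd4 (SE 0.54, unadjusted p = 0.0316), 0.85 for Fcna (SE 0.25, unadjusted p = 0.00373, adjusted p = 0.679) and -0.71 for Id3 (SE 0.23, unadjusted p = 0.00854, adjusted p = 0.911) on the log2 scale. Adgre1 differed by -0.03 (SE 0.23) and Vsig4 by 0.06 (SE 0.40).

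Endothelial-like cells, which line the sinusoid beside Kupffer cells, were of interest for Id3. They held 629 and 403 CPM in control mice, 738, 1017 and 1127 CPM in HFD+F+CCl4 mice, and 738 and 744 CPM in WD+F+CCl4 replicates 2 and 3. WD+F+CCl4 replicate 1 had 9 such cells and was left out of the fit. Both control mice lay under all 5 NASH mice, and the difference was not called (log2 fold change 0.87, SE 0.35, adjusted p = 0.267 in HFD+F+CCl4 mice, and 0.51, SE 0.37, adjusted p = 0.641 in WD+F+CCl4 mice). Adgre1 was the only one of the 8 members tested that was called in these cells, against 2.97% and 2.86% of 10795 genes (0.991% and 0.852% higher, 1.98% and 2.01% lower), at 9.25 and 7.74 CPM in control mice, 109, 67.1 and 42.5 CPM in HFD+F+CCl4 mice and 68.2 and 58.2 CPM in WD+F+CCl4 replicates 2 and 3 (log2 fold change 3.09, SE 0.51, adjusted p = 0.0115 and 2.74, SE 0.55, adjusted p = 0.0307). It was at 0.686 to 1.89 times the T- and B-like level of the same mouse, and that lymphocyte level itself was 4.88 and 11.3 CPM in control mice and 30.5 to 76.6 CPM in NASH mice. The call was lost without doublets (adjusted p = 0.210 and 0.419), without control replicate 1 (0.298 and 0.351) and without control replicate 2 (0.0676 and 0.121), and in WD+F+CCl4 mice without replicate 3 (0.130). The part of this background in the result was not tested. Macrophage genes moved in the same cells and direction, since Itgb5 rose by 4.18 and 3.88, Ms4a7 by 5.29 and Fcgr4 by 3.70 in HFD+F+CCl4 mice and Clec4a3 by 4.11 and Csf1r by 3.03 in WD+F+CCl4 mice, while the lymphocyte gene Cd6 fell by 4.37 and 4.71 and the hepatocyte-secreted genes Mup3 by 3.83 and 5.31, Apoa2 by 2.82 and 3.19 and Fgb by 2.56 and 3.51.

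In control mice the restricted transcripts were few, and most of them lay outside the Kupffer-like class. Of the 131 Clec4f UMIs of control replicate 1, 27.5% lay in endothelial-like cells, 24.4% in macrophage-like cells, 19.8% in T-like cells, 9.16% in the unnamed clusters and 6.87% in its single Kupffer-like cell. In the same order, these classes held 3.92%, 0.109%, 41.4%, 10.2% and 0.0065% of all kept UMIs of that mouse. Its 593 endothelial-like cells were at 25.6 CPM of Clec4f, 14.8 times its T- and B-like level, and its 18 macrophage-like cells at 823 CPM. Clustering with the members put 6 cells of this mouse in the Kupffer-like cluster, and the finer clustering 3. In control replicate 2, 63.6% of 55 Clec4f UMIs, 82.4% of 34 Vsig4 UMIs and 84.8% of 33 Cd5l UMIs lay in the unnamed clusters, which held 38.1% of all kept UMIs of that mouse. In WD+F+CCl4 replicate 3, by contrast, 86.6% of 12652 Clec4f UMIs lay in Kupffer-like cells. In HFD+F+CCl4 replicate 2 the share was 74.1% of 3619, and in HFD+F+CCl4 replicate 1 it was 63.1% of 3513.

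Of 19 regulators and niche receptors, 13 had a higher class mean in Kupffer-like than in macrophage-like cells and 6 did not, with no test. Spic, which drives iron-recycling macrophages, was at 116 against 18.9 CPM, Tfec at 102 against 22.9, Nr1h3, which encodes the oxysterol receptor LXR-alpha, at 517 against 236 and its partner Rxra at 173 against 60.3. Among the receptors for niche signals, Acvrl1, a receptor for BMP9 and BMP10, was at 103 against 57.7 CPM and Csf1r at 1422 against 1123. Rbpj had the opposite order, at 33.9 against 134 CPM. Zeb2 was at 874 against 1104 CPM.

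The ligands of the niche were found in the neighbouring classes. Bmp2 was at 619 CPM in endothelial-like cells and 61.0 in stellate-like cells, and the Notch ligands Dll4 and Dll1 were at 74.3 and 28.0 CPM in endothelial-like cells and under 2 CPM in Kupffer-like cells. Gdf2, which encodes BMP9, was at 335 CPM in stellate-like cells, Bmp10 at 41.4, Il34 at 49.8 and Csf1 at 267. Tgfb1 had no such source and was at 359 CPM in Kupffer-like, 414 in macrophage-like and 335 in endothelial-like cells. Stellate-like values are means of 2 HFD+F+CCl4 mice.

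**Figure D5:**
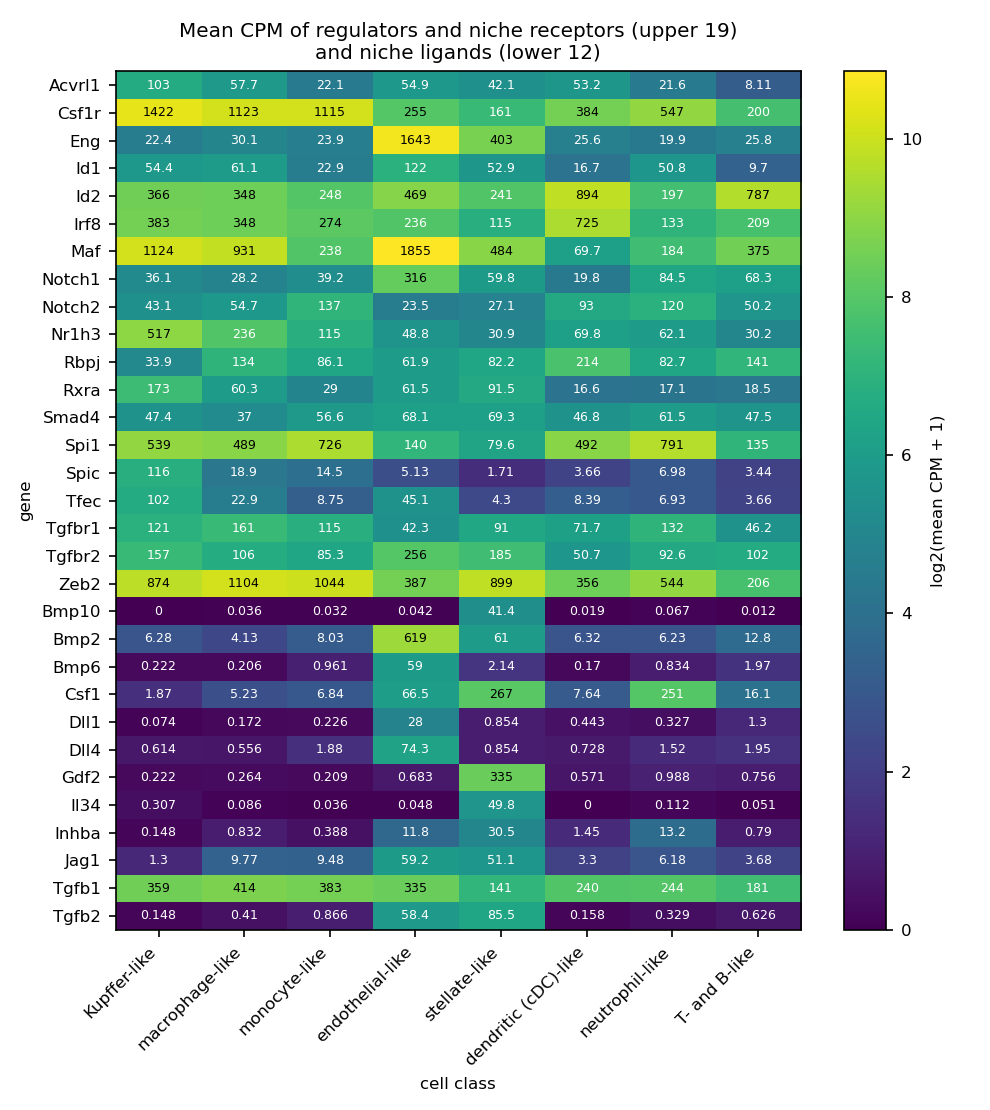
Mean CPM of 19 regulators and niche receptors and of 12 niche ligands (rows) in 8 cell classes (columns), on a logarithmic colour scale. Spic and Tfec are highest in Kupffer-like cells, at 116 and 102 CPM, Bmp2 and Dll4 in endothelial-like cells, at 619 and 74.3 CPM, and Gdf2 and Bmp10 in stellate-like cells, at 335 and 41.4 CPM.

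Other genes of the Kupffer cell and its surroundings were followed as whole lists. Of the 12 Kupffer markers outside the 9 genes, 3 rose and 0 fell in all kept cells in each comparison with control, namely Nr1h3, Spic and Sdc3, where 9.63% and 11% of all genes tested were called higher and 9.22% and 10.3% lower, a background for each list here. The 12 markers had a median log2 fold change of 2.38 in HFD+F+CCl4 and 2.63 in WD+F+CCl4 mice. Of 10 genes of recruited macrophages, 9 rose in HFD+F+CCl4 and 10 in WD+F+CCl4 mice, led by Itgb5, which encodes an integrin chain (log2 fold change 4.67 and 4.85). Of 17 receptors for particles and opsonins, 9 rose and 1 (Tyro3) fell in each, led by the Fc receptor gene Fcgr4 (4.67 and 5.09) and the apoptotic cell receptor gene Axl (3.72 and 3.51). Of 12 genes secreted by hepatocytes, 5 fell in HFD+F+CCl4 and 9 in WD+F+CCl4 mice, and Mup3 fell by 4.67 and 5.53 on the log2 scale, Apoa2 by 3.05 and 2.97 and Fgb by 3.08 and 3.80. Of 12 niche ligands, Tgfb1 rose in both (1.82 and 1.86), Jag1 rose in HFD+F+CCl4 mice (1.71) and none fell.

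Within monocyte-like cells, of the 12 Kupffer markers, 1 rose in HFD+F+CCl4 mice, and 1 rose and 1 (Hpgd, a prostaglandin-degrading enzyme gene) fell in WD+F+CCl4 mice. The gene that rose in both was Nr1h3 (log2 fold change 3.73, SE 0.32, adjusted p = 0.00105 and 3.43, SE 0.32, adjusted p = 0.00132). Fcgr4 rose by 3.36 and 3.48 and the tetraspanin gene Cd9 by 3.70 and 2.48, while Notch1 fell by 2.48 and 1.97 and Mup3 by 3.67 and 6.82. Of the 10 genes of recruited macrophages, Cd9 and Ms4a7 rose and the chemokine receptor gene Ccr2 fell (by 1.70) in HFD+F+CCl4 mice, and 5 rose in WD+F+CCl4 mice, Spp1 and Trem2 among them. Of the 12 genes secreted by hepatocytes, which these cells do not make, 2 fell with HFD+F+CCl4 and 11 with WD+F+CCl4, the lipoprotein gene Apoa2 by 2.35 and 4.26. Their summed level was 1686 to 1950 CPM in control, 158 to 1181 in HFD+F+CCl4 and 116 to 232 in WD+F+CCl4 mice. The Notch ligand gene Jag1 rose by 4.83 and 3.86 and was the only one of the 12 niche ligands that was called. The median over all genes was 0.08 and 0.09. In phagocytes, where the median of all genes was 0.16 and 0.15, Ms4a7, a macrophage membrane gene, rose by 4.59 and 4.30, Fcgr4 by 2.92 and 3.20 and Nr1h3 by 3.06 and 2.75, while Notch1 fell by 1.80 and 1.82, Mup3 by 4.10 and 6.76 and Apoa2 by 2.77 and 4.23.

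Genes whose pattern over cell classes was most like that of a member were ranked by Pearson correlation of log2(CPM + 1) over 99 points, each the sum of 1 class in 1 mouse, from 15 classes, among genes other than the 9 members. The points share libraries and depth, so the values are a description. Between members the highest values included 0.899 for Clec4f with Vsig4 and 0.931 for Cd5l with Folr2. Marco was the closest such gene to Clec4f (r = 0.823) and to Vsig4 (0.841), and Il18bp and Kcnj10 followed for both. Pcolce2 was closest to Timd4 (0.795) and to Fcna (0.841). Fabp7 was closest to Cd5l (0.849) and to Folr2 (0.904). Adgre1 was closest to Hmox1 (0.929), Fcgr4 (0.909) and Trem2 (0.907), and Siglec1 to Fcgr1 (0.871), Slc7a8 (0.862) and C3ar1 (0.842). For Id3, with its endothelial maximum, Mtch1 (0.813), Ctnna1 (0.790) and Lrrc58 (0.781) were closest.

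Close relatives of the members had patterns of their own. Cd163, which shares the scavenger receptor domain with Cd5l, was at 45.6 CPM in Kupffer-like and 2.68 in macrophage-like cells. Of the lectin genes related to Clec4f, Clec4g was at 919 CPM in endothelial-like and 13.3 in Kupffer-like cells, while Clec4n was at 373 CPM in Kupffer-like cells against 112 in macrophage-like cells. Among the relatives of Siglec1, Siglece was at 196 CPM in Kupffer-like and 46.6 in macrophage-like cells. Adgre4, a relative of Adgre1, was at 390 CPM in monocyte-like cells against 192 in Kupffer-like cells. Fcnb, which encodes ficolin B, was at 5.66 CPM in monocyte-like cells and 0.074 in Kupffer-like cells, opposite to Fcna. Id1 was at 122 CPM in endothelial-like cells, where Id3 was highest, and at 54.4 in Kupffer-like cells, and Id2 was at 894 CPM in conventional dendritic-like cells against 366.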

How the data were processed

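Single-cell RNA-seq libraries (10x Chromium 3' V3) of 8 mouse livers were used. The authors ran Cell Ranger on reads aligned to mm10 (GRCm38) and deposited 1 matrix of raw UMI counts per gene and barcode, whose header names cellranger 4.0.0, with a barcode suffix that gives the mouse. No sample was left out. The titles gave the groups, and nothing in the labels tied mice to batches. The 9 genes and all gene lists were chosen with earlier results of these data known.

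The filter on cells asked for over 500 genes and less than 25% of UMIs from mitochondrial genes. The authors' cell annotation was not used here. Log-transformed counts per 10000, the 2000 most variable genes without the 9 members, 30 principal components and 20 neighbours were used for Leiden clustering at resolution 0.42 (scanpy 1.11.5, leidenalg 0.10.2, seed 1). A cluster took the name of the marker list with the highest mean z-score of its genes over clusters where at least 3 of its markers were each found in a share of at least 0.1 of the cells, the mean z reached 0.5 and led the next list by 0.25, and the 10 genes leading by fold held no more markers of another list than of its own. These thresholds were set after the clusters were seen. Doublets were not removed, because the threshold that Scrublet set for itself called 0% of the barcodes in some libraries, and removal of the top-ranked barcodes at 0.8% per 1000 barcodes was an alternative.

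UMI counts were summed per class and mouse, with at least 20 cells, and tested with edgeR 4.0.16 in R 4.3.3 (TMM, filterByExpr with a minimum of 10, quasi-likelihood F test, 1 fit over all groups, at least 2 mice per group). Adjusted p values are Benjamini-Hochberg values over all genes tested, and each test compares mice. DESeq2 1.42.0, no further scaling, no filter, only the groups compared, other cell filters, a finer clustering at resolution 0.8, clustering with the members, removal of doublets, a replicate block and leaving out each mouse were alternatives. The test was tested on simulated data. All 9 members were looked up in every comparison, and not all are named in each. A member not named in a comparison was not called there by the main edgeR fit. Of the other lists, the rule named the 3 called genes with the smallest p in each direction, and further genes were named after their values were seen. Cells were thinned to 500 or 1000 UMIs for shares of cells. The limit that a count of 0 allows was taken as 3 counts, and intervals are 95% intervals of counting error.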

Additional observations from a re-analysis of the deposited data

How the results depend on the processing

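The number of members called against control depended on the choices as follows, with the HFD+F+CCl4 value before the WD+F+CCl4 value. In all kept cells it was 3 and 3, 5 and 5 with DESeq2, which called 5076 and 5506 of all 19787 genes against 3730 and 4227, 5 and 5 without a filter on low counts, and 1 to 4 and 2 to 4 when 1 mouse was left out. In phagocytes it was 1 and 1, 2 and 3 with DESeq2, 3 and 5 without the filter, 0 to 3 and 0 to 1 with 1 mouse left out, and 3 in WD+F+CCl4 mice with only the compared groups in the fit. In monocyte-like cells it was 1 and 1, 2 and 3 with DESeq2, 5 and 6 without the filter, and 0 to 1 in both with 1 mouse left out. In endothelial-like cells it was 1 and 1, 3 and 3 without the filter, 0 and 0 without doublets, 0 to 2 and 0 to 1 with 1 mouse left out, and 0 in WD+F+CCl4 mice with the finer clustering. Between the 2 NASH models 0 members were called, with 1 mouse left out also 0 in each class, but 1 in monocyte-like cells with DESeq2 and without the filter and 2 in macrophage-like cells without the filter. The causes were not tested.

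Mice with the same replicate number did not deviate together, with correlations from -0.673 to 0.091 in all kept cells and from -0.477 to 0.057 in the classes, so the numbers were not taken as pairs. A replicate block lowered the members called in WD+F+CCl4 mice to 0 in phagocytes and to 0 in endothelial-like cells. It reversed no member that had an unadjusted p under 0.05 in the main fit. It took Id3 (adjusted p = 0.113) in HFD+F+CCl4 mice and Folr2 (0.152) in WD+F+CCl4 mice from the calls in all kept cells. Over all genes it lowered the calls from 3730 and 4227 to 1279 and 1722 in all kept cells, from 840 and 1092 to 184 and 164 in phagocytes, from 1004 and 927 to 428 and 344 in monocyte-like and from 321 and 309 to 104 and 0 in endothelial-like cells. DESeq2 called 1524 and 1770 of 15936 genes in phagocytes and 1396 and 1425 of 14025 in monocyte-like cells. The fit without the filter called 3193 and 3583 of 34289 genes in all kept cells and 1633 and 1830 of 29393 in phagocytes. It called 1963 and 2055 of 26965 in monocyte-like and 1050 and 906 of 23908 in endothelial-like cells. Between the models it called 141, 1005 and 46 genes in phagocytes, monocyte-like and endothelial-like cells, and 402 of 26405 in macrophage-like cells. With only the compared groups it was 2314 genes in all kept cells, 481 in phagocytes and 665 in monocyte-like cells of HFD+F+CCl4 mice. In phagocytes of WD+F+CCl4 mice it was 1218 of 14923. In endothelial-like cells, removal of doublets left 123 and 140 genes, clustering with the members 190 and 143 and the finer clustering 195 and 155. With 1 mouse left out the count fell as low as 2016 and 2299 in all kept cells, 42 and 52 in phagocytes, 92 and 55 in monocyte-like and 3 and 3 in endothelial-like cells, where the remaining mouse of a pair was assumed to vary like the other groups. In the monocyte cluster led by Vcan and Chil3, a choice made after seeing the data, 538 genes were called in HFD+F+CCl4 mice.

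Thinning to 1000 in place of 500 UMIs raised the mean share of Kupffer-like cells with a UMI from 29.6% to 48.1% for Adgre1, 91.2% to 97.7% for Cd5l, 53.3% to 69.2% for Clec4f, 23.3% to 37.7% for Fcna, 33.0% to 52.9% for Folr2, 16.3% to 31.6% for Id3, 3.73% to 6.51% for Siglec1, 7.71% to 12.7% for Timd4 and 54.8% to 70.9% for Vsig4. Values of single members were counted only where the unadjusted p was under 0.05 in the main fit. Of these, 403 kept direction and call, 34 became called, 29 lost the call and none changed direction. Members with a larger unadjusted p, whose direction is less certain, were not counted. Kupffer-like cells as classified were not tested, and a limit of more than 1000 genes per cell left only the 2 models testable in monocyte-like cells and phagocytes. The 2 control mice, 1 of them shallow, limit every comparison with control.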

Other observations

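Within mononuclear phagocytes, of 20 regulators and niche receptors 4 rose and 2 fell in HFD+F+CCl4 mice and 3 rose and 2 fell in WD+F+CCl4 mice, where 5.27% and 6.85% of all genes tested were called. The genes given here were chosen after their values were seen, and each was called by edgeR. The transcription factor gene Maf rose by 1.59 in HFD+F+CCl4 mice and by 1.48 in WD+F+CCl4 mice on the log2 scale. The Notch receptor gene Notch2 fell by 1.10 and 0.87. Of the receptors for apoptotic cells, Axl rose by 2.24 and 2.02 and Mertk by 3.27 and 3.01, and the complement receptor gene C3ar1 rose by 3.62 and 3.86. Of the relatives of the members, Clec4n rose by 3.62 and 3.09, and Siglece rose by 2.66 in HFD+F+CCl4 mice. In monocyte-like cells the scavenger receptor gene Cd36 rose by 1.61 and 1.28. The numbers of macrophage-like cells in the pooled phagocytes differed between groups, and their part in these values was not tested.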
